A study of Homo sapiens with 18 samples.

Results

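The Krüppel-like factors (KLF) are transcription factors, and 10 of their genes were followed here: KLF2, KLF3, KLF4, KLF5, KLF6, KLF7, KLF9, KLF10, KLF11 and KLF13. They were chosen by name, and each was found by its Entrez gene ID among the 23604 genes listed in the RNA-Seq files. The cells were MCF10A-ErSrc, an immortalised human breast epithelial line that carries the v-Src kinase fused to the ligand-binding part of the estrogen receptor, so that tamoxifen switches the kinase on. NT cells were grown without tamoxifen and TAM cells had been transformed by it, and both kinds were incubated for 4 h with the vehicle DMSO (groups NT and TAM) or with triptolide at the labelled dose (TPL-125nM, groups NT + TPL and TAM + TPL). Triptolide (TPL) binds XPB, a subunit of the general transcription factor TFIIH. RNA-Seq was made from 2 cultures per group, 8 libraries in all, and 1 list of RNA polymerase II (RNAPII) ChIP-Seq peaks per group was used. All groups come from 1 engineered line.

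KLF proteins share 3 C-terminal zinc fingers of the C2H2 type that bind CACCC boxes and GC-rich elements in promoters, as the related SP proteins do, and they differ in the N-terminal regions that recruit partners. KLF2, KLF4, KLF5, KLF6 and KLF7 mostly act as activators and can recruit acetyltransferases such as p300. KLF3 binds the corepressor CtBP, and KLF9, KLF10, KLF11 and KLF13 bind the corepressor SIN3A. In stratified and glandular epithelia KLF5 is known for its part in proliferation of basal cells, KLF4 for its part in differentiation, and KLF6 and KLF10 as genes that answer quickly to growth factors and TGFβ.

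Library depth was between 7461309 and 8349448 expected counts. Epithelial genes were high, with KRT5 mRNA between 434 and 6250 FPKM (fragments per kilobase of transcript, relative to the library total) over the 8 libraries, whereas the T cell gene CD3E did not exceed 0.17, VWF of endothelium 0.04 and COL3A1 of fibroblasts 0.05 FPKM. PTPRC lay between 0.16 and 2.14, PECAM1 between 0.46 and 1.69 and COL1A1 between 0.5 and 6.14 FPKM. PTPRC alone had TPL libraries above the DMSO libraries in both states (edgeR adjusted p = 0.123 and 0.115), and its part in the results below was not tested. In what follows a gene fell or rose where its Benjamini-Hochberg adjusted p in edgeR's quasi-likelihood test was at most 0.05, and was called where it was at most 0.001 with a change of 1.2 or more on the log2 scale, the thresholds of the study's methods. Because FPKM and the fits scale each library to its own total, an equal fall of all mRNAs would not appear in the values, and fewer expressing cells cannot be told apart from less mRNA per cell.

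Promoters of 4 members that behaved differently are shown, as the 250 bases before the start site (TSS) of the Ensembl canonical transcript, in hg19 (GRCh37) and 5′ to 3′ on the gene's strand. Capitals mark GGGCGG and CACCC, the GC box and the CACCC box that SP and KLF proteins bind, on either strand and with overlaps joined. KLF6 had the largest mean fall in mRNA with TPL and kept a peak over its TSS, KLF3 lost its peak, KLF4 had no fall that passed the test, and KLF2 had a listed peak only with TPL.
KLF6 (chr10:3827402-3827651, minus strand): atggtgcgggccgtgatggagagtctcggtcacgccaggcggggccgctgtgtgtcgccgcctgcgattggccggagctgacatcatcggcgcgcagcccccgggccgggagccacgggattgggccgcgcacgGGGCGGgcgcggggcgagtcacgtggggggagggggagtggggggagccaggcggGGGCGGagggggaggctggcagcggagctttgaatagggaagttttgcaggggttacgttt
KLF3 (chr4:38665570-38665819, plus strand): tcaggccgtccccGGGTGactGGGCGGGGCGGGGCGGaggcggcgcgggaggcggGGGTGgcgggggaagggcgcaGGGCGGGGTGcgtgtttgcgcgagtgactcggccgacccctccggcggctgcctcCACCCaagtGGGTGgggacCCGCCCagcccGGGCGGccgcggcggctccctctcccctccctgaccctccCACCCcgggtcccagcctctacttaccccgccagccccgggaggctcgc
KLF4 (chr9:110252051-110252300, minus strand): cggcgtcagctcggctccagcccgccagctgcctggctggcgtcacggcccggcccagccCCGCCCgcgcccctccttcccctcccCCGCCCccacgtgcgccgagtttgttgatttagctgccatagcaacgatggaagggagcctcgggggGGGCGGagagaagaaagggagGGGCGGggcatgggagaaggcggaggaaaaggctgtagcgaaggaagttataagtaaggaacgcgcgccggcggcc
KLF2 (chr19:16435387-16435636, plus strand): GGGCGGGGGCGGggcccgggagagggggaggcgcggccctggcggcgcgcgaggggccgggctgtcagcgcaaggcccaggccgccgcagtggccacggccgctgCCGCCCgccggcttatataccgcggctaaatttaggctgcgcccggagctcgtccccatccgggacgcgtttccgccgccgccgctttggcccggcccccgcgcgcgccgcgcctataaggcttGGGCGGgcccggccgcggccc
The KLF3 window held 6 CACCC and 6 GGGCGG matches, whereas the KLF6 window held 0 and 2, the KLF4 window 0 and 4 and the KLF2 window 0 and 4. GC content was 72.4% for KLF6, 79.6% for KLF3, 69.2% for KLF4 and 80% for KLF2, beside a median of 63.2% over 19825 promoters of the same length. Over the 10 members, 8 windows held GGGCGG and 5 held CACCC, and 59.2% and 58.8% of all promoters held them. CCAAT was found in 6 members and 34.3% of promoters, TGACG in 4 and 25.4%. TATAAA was found in 0 members and 9.27% of promoters, TGACTCA in 0 and 3.05%, and the CArG box, the element that serum response factor binds, in 0 and 1.12%. KLF9 stood apart with 32.4% GC and neither GGGCGG nor CACCC in its window. These matches are a description of letters in the windows.

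Without TPL, the KLF mRNA of these cells was mostly KLF6 and KLF5. In NT cells the mean level was 212 ± 4.08 FPKM for KLF6 and 127 ± 33.5 for KLF5 (SD, n = 2, as for all means here), against 14.6 ± 1.69 for KLF13, 14.4 ± 1.15 for KLF7, 12.29 ± 1.14 for KLF10, 11.0 ± 2.40 for KLF3 and 9.2 ± 0.226 for KLF4. KLF11 at 3.56 ± 0.403, KLF9 at 1.59 ± 0.594 and KLF2 at 1.08 ± 0.163 FPKM were the lowest. In this order the libraries of KLF13 and KLF7, of KLF10 and KLF3, of KLF3 and KLF4, and of KLF9 and KLF2 overlapped, and the other neighbours did not. In TAM cells KLF6 (198 ± 19.3 FPKM) and KLF5 (194 ± 0.884) overlapped, and KLF10 (26.6 ± 0.891) stood above KLF13 (13.8 ± 2.03), KLF3 (10.8 ± 0.113) and KLF7 (10.6 ± 0.495). KLF6 lay at the percentile 98.3 of the 16948 tested genes in NT and 98.2 in TAM cells.

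With TPL the order changed. KLF5 became the highest member, at 19.0 ± 7.46 FPKM with NT + TPL and 32.9 ± 3.73 with TAM + TPL. KLF6 (11.5 ± 0.269), KLF4 (10.1 ± 3.59) and KLF10 (8.94 ± 4.12) followed in NT + TPL cells with overlapping libraries. In TAM + TPL cells KLF10 (9.13 ± 1.06) and KLF6 (8.32 ± 1.02) overlapped, and KLF4 (7.22 ± 0.0495) lay just under both. Summed over the 10 members, the level was 375 and 439 FPKM in the NT libraries and 70.4 and 45.3 in the NT + TPL libraries, and 489 and 454 in the TAM libraries and 62.2 and 72.7 in the TAM + TPL libraries. KLF5 and KLF6 together made up between 82.9 and 83.5% of that sum in the DMSO libraries and between 50.5 and 61.2% in the TPL libraries.

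**Figure D1:**
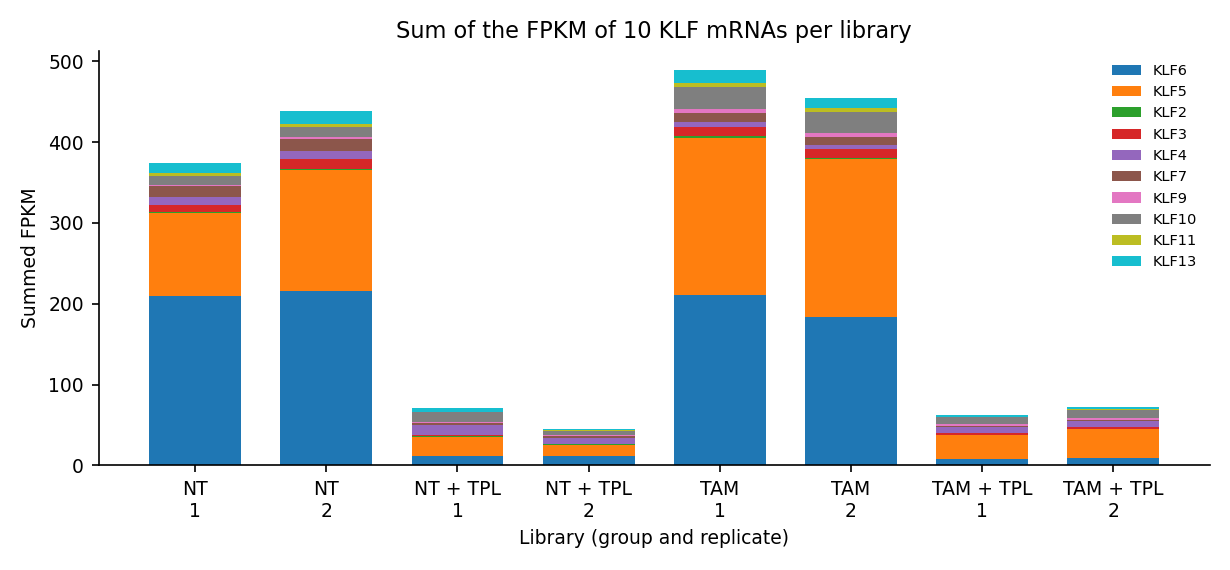
Summed FPKM (y axis) of the 10 KLF mRNAs in each library (x axis, group and replicate), with 1 coloured segment per gene. The 4 DMSO libraries reach 375 to 489 FPKM, mostly KLF6 and KLF5, and the 4 TPL libraries 45.3 to 72.7 FPKM.

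**Figure D2:**
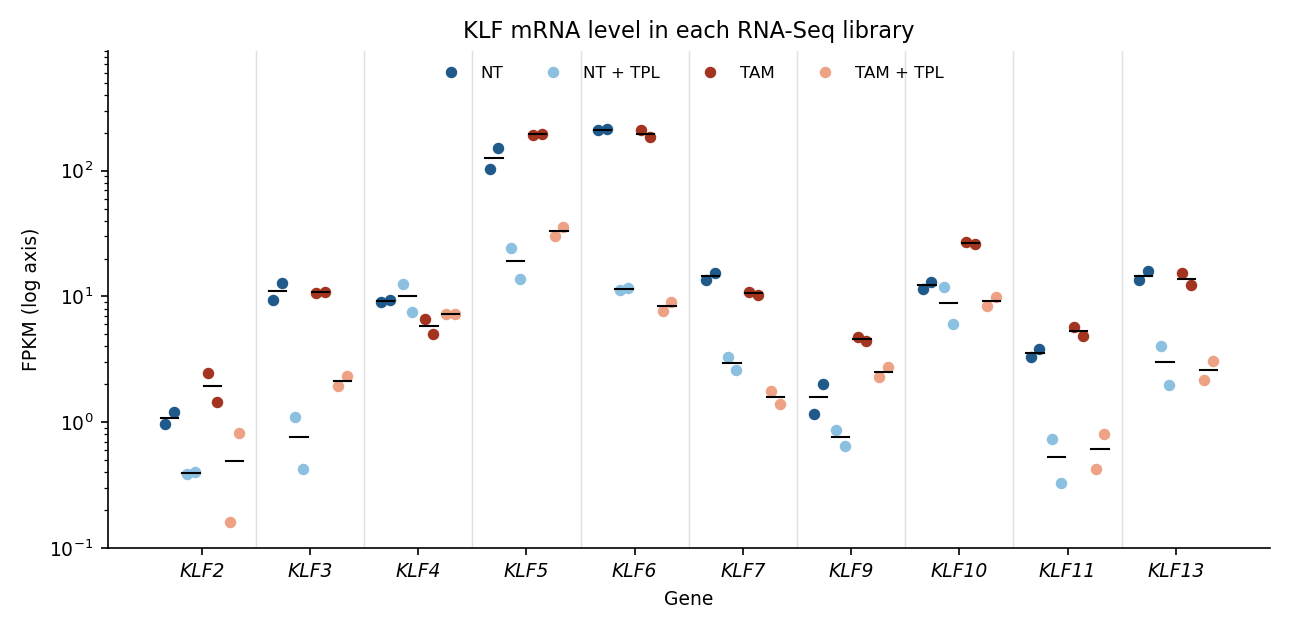
FPKM on a log axis (y) of each KLF gene (x) in the 8 libraries, with points for the libraries, colours for the groups and black lines for the means of 2. The TPL libraries lie below the DMSO libraries of the same cells for every gene but KLF4 in both states and KLF10 in NT cells.

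Most KLF mRNAs were lower with TPL in both cell states. In NT cells 7 of 10 members fell (KLF3, KLF5, KLF6, KLF7, KLF9, KLF11 and KLF13), where 19.8% of all tested genes fell, and 0 rose, where 17.2% rose. In TAM cells 7 fell as well (KLF3, KLF5, KLF6, KLF7, KLF10, KLF11 and KLF13), where 18.6% of tested genes fell, and 0 rose, where 14.3% rose. With edgeR 0 members also had a higher level at an unadjusted p under 0.05 in either comparison. Of 16948 tested genes, 4018 did in NT and 3567 in TAM cells. At the study's thresholds DESeq2 called 0 members higher in either state, beside 936 of 23529 genes in NT and 870 in TAM cells. The median log2 fold change of the members was -2.31 in NT and -2.42 in TAM cells, beside 0.09 and 0.05 over all tested genes. KLF3, KLF5, KLF6 and KLF7 were called in NT cells, a direction and rule met by 2.71% of tested genes, and KLF6 and KLF7 in TAM cells, met by 2.04%. The TPL libraries lay wholly below the DMSO libraries for 8 members in NT cells, against 32.7% of tested genes, and for 9 members in TAM cells, against 34.7%. They lay wholly above for 0 members in NT cells, against 36.4% of tested genes, and for 1 (KLF4) in TAM cells, against 40%. In most fits with 1 of the 8 libraries left out fewer members were called, and fewer genes in all. Over these fits the members' median log2 fold change lay between -2.67 and -2.01 in NT cells, and between -2.63 and -2.25 in TAM cells. The falls of KLF3, KLF5, KLF6, KLF7, KLF11 and KLF13 stayed at an adjusted p under 0.05 in both states under each of 20 alternatives.

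**Figure D3:**
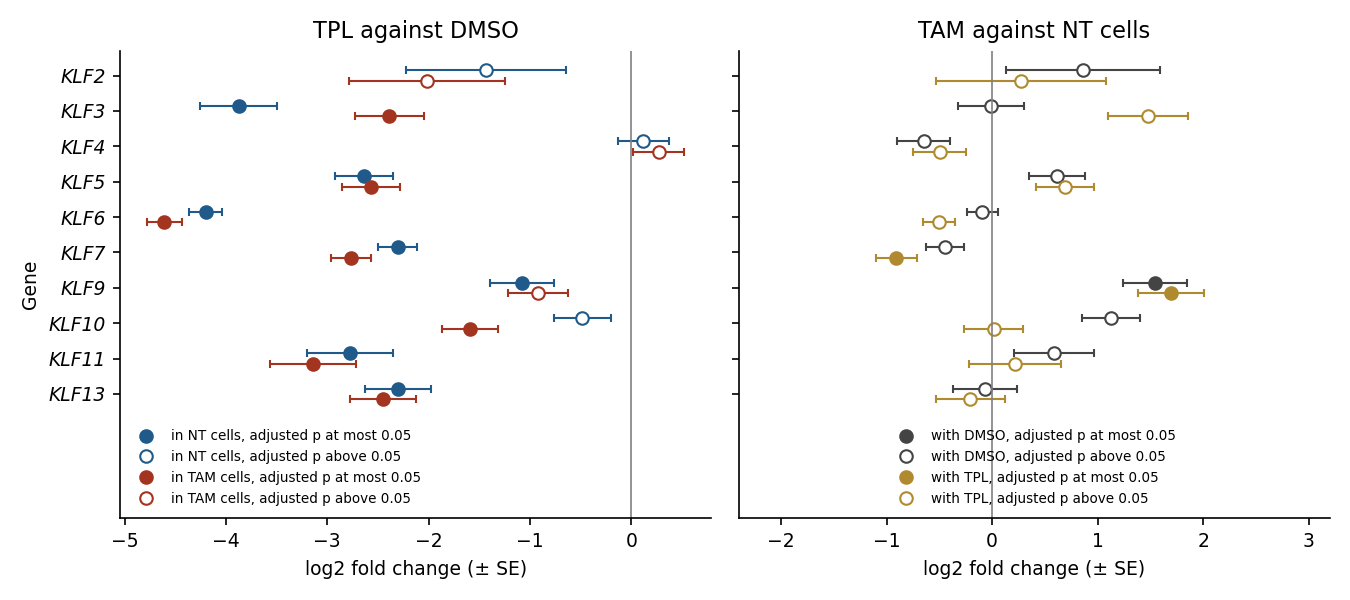
Fitted log2 fold change ± SE (x axis) of each KLF gene (y axis), on the left for TPL against DMSO in NT and TAM cells and on the right for the TAM to NT comparison under DMSO and under TPL. Filled points have an edgeR adjusted p of at most 0.05, and the left panel has 7 filled points for each cell state, all below 0.

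KLF6, a zinc finger activator also known as a tumour suppressor, changed most. It had 209.5 and 215.3 FPKM in the NT libraries and 11.3 and 11.7 in the NT + TPL libraries, and 211.2 and 183.9 in the TAM libraries and 7.60 and 9.04 in the TAM + TPL libraries. The DMSO libraries were all high and the TPL libraries all low, with no overlap in either state. Its log2 fold change was -4.20 ± 0.166 (SE), 18.4-fold lower, in NT (edgeR adjusted p = 0.000178) and -4.61 ± 0.169, 24.4-fold lower, in TAM cells (adjusted p = 0.000167). From the percentile 98.3 in NT and 98.2 in TAM cells it went to 72.4 and 65.5 of the tested genes with TPL.

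KLF5, an activator that promotes proliferation of epithelial cells, had 103 and 150.3 FPKM in the NT libraries and 24.2 and 13.7 in the NT + TPL libraries. TAM libraries had 194 and 195 FPKM and TAM + TPL libraries 30.2 and 35.5. All TPL libraries were far under their DMSO libraries, and KLF5 was still the member with the highest mean in both TPL groups. It fell by 2.64 ± 0.286 on the log2 scale in NT (edgeR adjusted p = 0.000972) and by 2.57 ± 0.284 in TAM cells (adjusted p = 0.00118), the latter just short of a call.

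KLF7, which is known mostly from the development of neurons, is expressed at a low level in many tissues. Here it had 13.6 and 15.2 FPKM in the NT libraries, 3.30 and 2.59 in the NT + TPL libraries, 10.9 and 10.2 in the TAM libraries and 1.78 and 1.39 in the TAM + TPL libraries. The 4 groups did not overlap, and the lowest was TAM + TPL. The log2 fold change with TPL was -2.31 ± 0.189 in NT (edgeR adjusted p = 0.000423) and -2.77 ± 0.196 in TAM cells (adjusted p = 0.000364).

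KLF4, a regulator of epithelial differentiation and a factor of cell reprogramming, was the member with the highest mean log2 fold change. It had 9.04 and 9.36 FPKM in the NT libraries and 12.6 and 7.54 in the NT + TPL libraries, and 6.63 and 4.98 in the TAM libraries and 7.26 and 7.19 in the TAM + TPL libraries. The NT + TPL libraries lay on both sides of the NT libraries, and the TAM + TPL libraries lay above the TAM libraries. Its log2 fold change was 0.12 ± 0.25 (edgeR adjusted p = 0.733) and 0.27 ± 0.254 (adjusted p = 0.437). The sign in NT cells was negative with GAPDH as the reference (-0.26), without NT + TPL replicate 1 (-0.25) and when a second KLF4 entry was added (-0.37). That entry, a RefSeq transcript listed apart, had 57.7 and 118 expected counts in the NT libraries, 0 and 0 in the NT + TPL libraries, 38.03 and 39.7 in the TAM libraries and 0 and 23.3 in the TAM + TPL libraries. With both entries summed KLF4 had 272 and 339 counts in the NT libraries, 283 and 167 in the NT + TPL libraries, 200 and 161 in the TAM libraries and 159 and 195 in the TAM + TPL libraries. RSEM could split reads between the entries, so the level of either entry alone is uncertain.

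KLF2, an activator best known from endothelium and resting T cells, was scarce. It had 13 and 16 expected counts in the NT libraries, 5 and 5 in the NT + TPL libraries, 34 and 20 in the TAM libraries and 2 and 11 in the TAM + TPL libraries. The TPL libraries were below the DMSO libraries in both states, but at these counts the log2 fold changes of -1.43 ± 0.786 (edgeR adjusted p = 0.189) and -2.02 ± 0.77 (adjusted p = 0.0849) did not pass the test. The value in TAM cells was -1.30 without TAM + TPL replicate 1 (adjusted p = 0.267) and -3.56 without TAM + TPL replicate 2 (adjusted p = 0.052), and it passed under 3 of 19 alternatives.

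KLF3, a repressor that recruits CtBP, had 9.31 and 12.7 FPKM in the NT libraries and 1.10 and 0.42 in the NT + TPL libraries, and 10.7 and 10.9 in the TAM libraries and 1.94 and 2.32 in the TAM + TPL libraries. The DMSO libraries of both states overlapped, and the NT + TPL libraries were below the TAM + TPL libraries. KLF3 fell by 3.87 ± 0.379 on the log2 scale in NT (edgeR adjusted p = 0.000702), or by between 3.35 and 4.68 with 1 library left out, and by 2.39 ± 0.342 in TAM cells (adjusted p = 0.00296). The difference of the falls, 1.48 ± 0.493, did not pass the test (adjusted p = 0.367), although DESeq2 gave an adjusted p of 0.0266. That difference was 2.30 without NT + TPL replicate 1 (edgeR adjusted p = 0.089) and 0.97 without NT + TPL replicate 2 (adjusted p = 0.34). The antisense gene KLF3-AS1 had between 56.9 and 91.9 counts in every library, where KLF3 had between 18 and 587. Whether reads were counted by strand is not given in the sources used here, so part of the KLF3 reads cannot be told apart from antisense reads.

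Of the SIN3A-binding members, KLF11 and KLF13 fell in both states. KLF11, also called TIEG2 and induced by TGFβ, had 3.28 and 3.85 FPKM in the NT libraries, 0.73 and 0.33 in the NT + TPL libraries, 5.70 and 4.83 in the TAM libraries and 0.42 and 0.81 in the TAM + TPL libraries. No TPL library reached a DMSO library. Its log2 fold changes were -2.77 ± 0.427 (edgeR adjusted p = 0.00355) and -3.14 ± 0.426 (adjusted p = 0.00246). KLF13, known as a regulator of the chemokine gene CCL5 in T cells, had 13.4 and 15.8 FPKM in the NT libraries, 4.02 and 1.96 in the NT + TPL libraries, 15.3 and 12.4 in the TAM libraries and 2.16 and 3.07 in the TAM + TPL libraries. The groups with DMSO overlapped each other, as did the groups with TPL, and the TPL groups were low. The log2 fold changes were -2.31 ± 0.327 (edgeR adjusted p = 0.00261) and -2.45 ± 0.329 (adjusted p = 0.00239).

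KLF9 and KLF10 had the largest fitted differences between the cell states without TPL. KLF9, a repressor induced by glucocorticoids, had 1.17 and 2.01 FPKM in the NT libraries and 4.74 and 4.43 in the TAM libraries, and 0.86 and 0.65 in the NT + TPL libraries and 2.28 and 2.72 in the TAM + TPL libraries. Both TAM groups lay wholly above the NT groups with the same agent. TAM against NT gave a log2 fold change of 1.54 ± 0.301 with DMSO (edgeR adjusted p = 0.0285) and 1.70 ± 0.314 with TPL (adjusted p = 0.0235). The rise with DMSO did not pass the test without NT replicate 1 (edgeR adjusted p = 0.122), without TAM replicate 1 or 2 (0.146 and 0.139), or without TAM + TPL replicate 1 or 2 (0.0615 and 0.0619). With TPL, the rise did not pass without NT + TPL replicate 2 (adjusted p = 0.0843), TAM replicate 1 or 2 (0.0632 and 0.0621) or TAM + TPL replicate 1 or 2 (0.0933 and 0.137). Neither rise passed with the replicate number as a block (edgeR adjusted p = 0.0554 with DMSO and 0.0502 with TPL) or with GAPDH as the reference (0.105 and 0.0655). TPL lowered KLF9 by 1.08 ± 0.314 on the log2 scale in NT cells (edgeR adjusted p = 0.0345), a fall that passed under 8 of 20 alternatives and, of the fits without a library, only in that without NT replicate 1. In TAM cells the log2 fold change was -0.92 ± 0.295 (adjusted p = 0.0504).

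KLF10, also called TIEG1 and an early target of TGFβ, had 11.5 and 13.1 FPKM in the NT libraries and 11.8 and 6.02 in the NT + TPL libraries, and 27.2 and 26.0 in the TAM libraries and 8.38 and 9.88 in the TAM + TPL libraries. The TAM libraries were alone in being high, and the NT and NT + TPL libraries overlapped. KLF10 fell by 1.59 ± 0.279 on the log2 scale with TPL in TAM cells (edgeR adjusted p = 0.00637, or 0.0606 without TAM + TPL replicate 1). In NT cells the log2 fold change was -0.48 ± 0.277 (adjusted p = 0.208), or -1.01 with an adjusted p of 0.00858 without NT + TPL replicate 1 and -0.081 with an adjusted p of 0.758 without NT + TPL replicate 2, so that the value turned on which of these libraries was kept. The difference between the effects of TPL, -1.11 ± 0.39, did not pass the test (edgeR adjusted p = 0.394). TAM against NT with DMSO gave 1.12 ± 0.274 (edgeR adjusted p = 0.0604), and with TPL 0.02 ± 0.279 (adjusted p = 0.991).

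By edgeR, 1 KLF mRNA passed the test between TAM and NT cells with DMSO and 2 with TPL. With DMSO 1 member rose (KLF9), where 3.46% of tested genes rose, and 0 fell, where 3.39% fell. DESeq2 gave 2 rises (KLF9 and KLF10), where 4.31% of genes rose, and 0 falls, where 4.23% fell. With GAPDH as the reference 0 members rose, where 1.89% of genes rose, and 2 fell (KLF4 and KLF7), where 9.95% fell. That scaling moved the members' median log2 fold change from 0.289 to -0.197 and the median of all tested genes from -0.03 to -0.50. With TPL, KLF9 rose, where 2.83% of genes rose, and KLF7 fell by 0.91 ± 0.194 on the log2 scale (edgeR adjusted p = 0.0384), where 4.21% fell. The KLF7 fall did not pass the test without NT + TPL replicate 1 (0.11) or any library of the other groups (adjusted p between 0.0709 and 0.265), and passed without NT + TPL replicate 2 (0.0439). With TPL, DESeq2 gave 3 rises (KLF3, KLF5 and KLF9) and 2 falls (KLF6 and KLF7), where 4.25% of genes rose and 5.23% fell. With GAPDH as the reference 0 members rose and KLF7 fell, where 1.66% of genes rose and 5.67% fell. The KLF7 fall with TPL passed under 7 of 20 alternatives. This fall did not pass with library size only, with DESeq2 size factors or in either limma fit. In each of these fits 1 member rose. Nor did the KLF7 fall pass in the fit over the groups compared only, which called 0 of 16010 genes at the study's thresholds. The shares of all genes that passed 0.05 in these fits are not given here, so they do not bear on the members alone. By edgeR no member was called in either comparison, in which 0.655% and 0.596% of tested genes were called, whereas DESeq2 called 1 and 2 members beside 3.13% and 2.83% of genes. At an unadjusted p under 0.05, edgeR had 4 members with DMSO, beside 19.9% of tested genes, and 5 with TPL, beside 21.3%. For the difference between the effects of TPL in the cell states 0 members passed an adjusted p of 0.05 in edgeR, where 0.0885% of tested genes passed in the higher and 0.0767% in the lower direction. KLF3 and KLF10 were the 2 members with an unadjusted edgeR p under 0.05, beside 1799 of 16948 tested genes. DESeq2 had KLF3 alone under an adjusted p of 0.05, and the share of all genes at that threshold is not given here. At the study's stricter thresholds, which KLF3 did not meet, DESeq2 called 84 of 23529 genes higher and 59 lower for this difference. KLF5 had 103 and 150.3 FPKM in the NT libraries and 194 and 195 in the TAM libraries, which did not overlap, with a log2 fold change of 0.62 ± 0.268 (edgeR adjusted p = 0.262). KLF6, in contrast, overlapped between NT and TAM, with -0.09 ± 0.144 (adjusted p = 0.797).

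RNAPII peaks at the KLF promoters were read from 1 list per condition, which gives the start and end of each peak and neither height nor replicates, so no test was possible. A peak over the canonical TSS was listed for 7 of 10 members in NT (KLF3, KLF4, KLF5, KLF6, KLF7, KLF10 and KLF13), where 64% of 14680 tested genes had one. It was listed for 5 in NT + TPL (KLF2, KLF4, KLF5, KLF6 and KLF10), where 51.1% had one. In TAM it was listed for 7 (KLF3, KLF4, KLF5, KLF6, KLF7, KLF10 and KLF11), where 56.4% had one, and in TAM + TPL for the same 5 as in NT + TPL, where 50.2% had one. These member counts lie near the shares of all genes. The peak names of the TAM list carry a q setting of 0.1 and those of the other lists a cutoff of 0.02, and 4584 TAM names end in a letter, as 0 names of the others do. The lists may thus not have been called alike, and an absent peak is one that was not listed. With TPL in NT cells 62.9% of the 7233 genes with a peak in both lists had a narrower one, against 44.8% of 6714 genes in TAM cells, and the part of the settings in this was not tested.

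At KLF6 the peak shrank from the whole gene to its 5′ end. It spanned chr10:3818912-3829183 in NT, 10272 bases, and covered 92.1% of the canonical transcript. In NT + TPL it spanned chr10:3827205-3828480, 1276 bases that reached from 1079 bases before to 196 bases downstream of the TSS. In TAM the peak had 10268 bases and reached 8506 bases downstream, and in TAM + TPL 3927 bases and 2426 bases downstream. The upstream edge moved less, between 1079 and 1782 bases before the TSS over the 4 lists. The promoter printed above lay within the peak in each of them.

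KLF5 showed the same retreat of the downstream edge. Its peak at chr13:73632586-73635367 in NT reached 2224 bases past the TSS, and in NT + TPL (chr13:73632795-73633516) 373 bases. In TAM it had 8842 bases and covered 41.6% of the transcript, and in TAM + TPL it had 1197 bases and covered 4.3%. At KLF10 the peak went from 781 bases in NT to 239 with TPL, and from 2247 in TAM to 326 with TPL. KLF4 differed from these, with a peak across the TSS that went from 302 bases in NT to 393 with TPL, and from 237 in TAM to 408 with TPL. Of the 4 members with a peak in both lists of a pair, 3 had a narrower one with TPL in each cell state, and KLF4 had a wider one.

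At other members the peak left the canonical TSS or was no longer listed. Other annotated TSSs could still lie in a peak. Of the 14 annotated TSSs of KLF7, 2 lay in the TAM + TPL peak and 0 in the NT + TPL peak. Of the 5 of KLF11, 1 lay in its NT peak. KLF7 had a peak of 5296 bases across its TSS in NT and 2805 bases in TAM, whereas with TPL the nearest peak ended upstream of the TSS, by 247 bases in NT + TPL and 215 bases in TAM + TPL. KLF3, whose peak at chr4:38664789-38666635 had 1847 bases in NT and 1275 in TAM, had none within 1000 bases with TPL. KLF11 likewise had peaks of 418 bases in NT, which began 9 bases past the TSS, and 482 bases in TAM, and none with TPL. KLF13 had a peak of 1021 bases across the TSS in NT and none near it in NT + TPL. In TAM it had 2 peaks that flanked the TSS, of 876 and 334 bases, and in TAM + TPL 1 of 271 bases that ended 272 bases upstream.

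KLF2 and KLF9 behaved otherwise. KLF2, with 2 to 34 counts per library, had no peak within 1000 bases of its TSS in NT or TAM, but a peak of 425 bases in NT + TPL (chr19:16435348-16435772) and of 320 bases in TAM + TPL (chr19:16435427-16435746). Both covered its TSS and most of the promoter printed above, while its mRNA counts were lowest with TPL. KLF9 had no peak within 1000 bases in NT or NT + TPL, and in TAM a peak of 381 bases and in TAM + TPL of 157 bases that began 503 and 607 bases downstream of the TSS. Its mRNA was higher in both TAM groups than in the NT groups with the same agent.

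**Figure D4:**
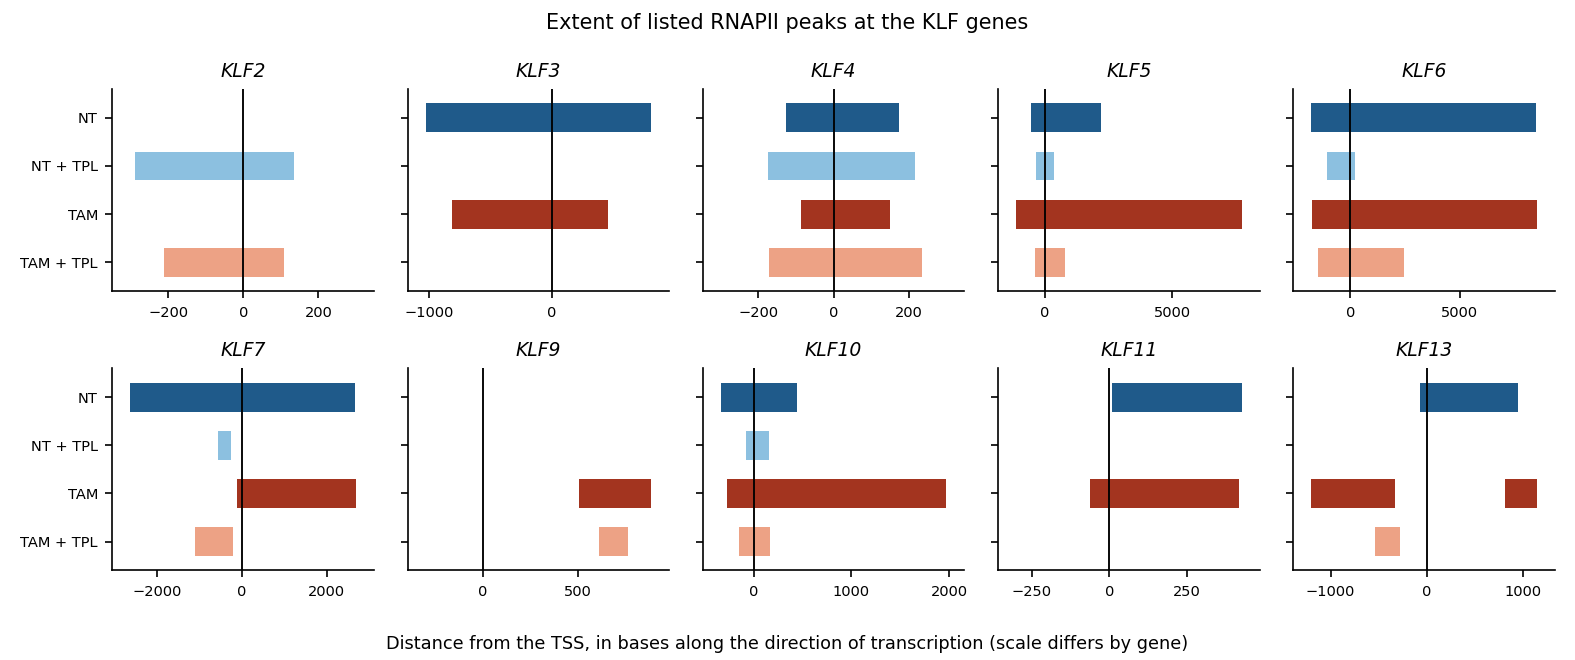
Start and end of the listed RNAPII peaks at each KLF gene, as distance in bases from the canonical TSS (x axis, positive in the direction of transcription, scale different for each gene), for the 4 conditions (y axis). Bars show listed peaks and the vertical line the TSS, and the bars of KLF6 and KLF5 end nearer to the TSS with TPL, those of KLF3 and KLF11 are missing with TPL, and those of KLF2 appear only with TPL.

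Of the 7 other KLF genes, 6 were listed and 3 passed the filter on low counts. KLF16, which resembles KLF13 and binds SIN3A, had 43.5 and 37.7 FPKM in the NT libraries, 10.87 and 7.5 in the NT + TPL libraries, 39.2 and 33.7 in the TAM libraries and 9.59 and 9.26 in the TAM + TPL libraries. It was called in both states, falling by 2.16 ± 0.191 on the log2 scale in NT (edgeR adjusted p = 0.000524) and with an adjusted p of 0.000714 in TAM cells. KLF12, a CtBP-binding repressor, had 1.28 and 1.75 FPKM in the NT libraries and 0.35 and 0.17 in the NT + TPL libraries, and fell by 2.55 ± 0.385 on the log2 scale (adjusted p = 0.00327). In TAM cells its log2 fold change was -0.54 ± 0.362 (adjusted p = 0.286). KLF8 did not pass the test in either state.

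Among 10 corepressor genes, 7 fell and 1 (HDAC3, named after its value was seen) rose with TPL in NT cells. In TAM cells 6 fell and 0 rose. Of all tested genes 19.8% fell and 17.2% rose in NT cells, and 18.6% fell and 14.3% rose in TAM cells. CTBP2, a partner of KLF3, had 46.5 and 52.0 FPKM in the NT libraries, 15.0 and 9.90 in the NT + TPL libraries, 63.9 and 75.0 in the TAM libraries and 13.3 and 14.4 in the TAM + TPL libraries. It was called in both states (-1.99 and -2.36 on the log2 scale). CTBP1 fell by 1.26 in both, HDAC2, a histone deacetylase, by 1.302 and 1.141, and NCOR1, a nuclear receptor corepressor, by 0.63 in both. Of 4 coactivator genes (EP300, CREBBP, KAT2A and KAT2B) 0 passed an adjusted p of 0.05 in edgeR in either state. At an unadjusted p under 0.05 edgeR had 1 (KAT2B) in NT and 0 in TAM cells, beside 8108 and 7640 of 16948 tested genes.

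Of 8 genes of ubiquitin ligases that can act on KLF proteins, 3 fell in NT and 1 in TAM cells, beside the shares of all genes given above. WWP1, a ligase of KLF2 and KLF5, fell by 1.84 and 1.41 on the log2 scale, SMURF1 by 0.54 and ITCH by 0.77 in NT cells, with -0.15 and -0.46 in TAM cells, where neither passed. Of 11 tested genes upstream of KLF genes, 5 fell in NT (with MEF2D, named after its value was seen) and 3 in TAM cells, beside those shares. NR3C1, the glucocorticoid receptor that induces KLF9, was called in both states, with 6.93 and 9.46 FPKM in the NT libraries, 1.28 and 1.32 in the NT + TPL libraries, 8.95 and 10.1 in the TAM libraries and 2.21 and 2.02 in the TAM + TPL libraries. TGFBR2, a TGFβ receptor, fell by 1.49 and 1.60, SMAD4, which carries TGFβ signals to the nucleus, by 0.70 and 0.67, and MEF2A, an activator of KLF2, by 0.68 in NT cells.

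Genes described as KLF targets moved both ways. Of 15 tested, 6 fell and 4 rose in NT cells, and 5 fell and 3 rose in TAM cells, beside the shares of all genes given above. BIRC5 (NT cells only), CCL5 and MAOA, named after their values were seen, were among the rises. PDGFA, a growth factor gene, had 17.9 and 16.4 FPKM in the NT libraries, 1.80 and 1.82 in the NT + TPL libraries, 14.0 and 17.7 in the TAM libraries and 1.84 and 2.09 in the TAM + TPL libraries. THBD, which encodes thrombomodulin, fell by 3.79 and 3.56 on the log2 scale, and CCND1, which encodes cyclin D1, by 1.90 and 1.34. CDKN1A, the cell cycle inhibitor gene that KLF4 and KLF6 are known to activate, went the other way, with 91.1 and 93.1 FPKM in the NT libraries, 316 and 234 in the NT + TPL libraries, 77.6 and 78.8 in the TAM libraries and 181 and 143 in the TAM + TPL libraries. Its TPL libraries were all above the DMSO libraries, and it rose by 1.56 ± 0.174 (edgeR adjusted p = 0.00105) and 1.02 ± 0.172 (adjusted p = 0.0056) on the log2 scale.

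Across the 8 libraries, the 3 genes whose log2(FPKM + 1) was most like that of KLF6, among 8545 tested genes with a mean of at least 5 FPKM, were FOS (Pearson r = 0.999), DUSP4 (0.998) and FOXF2 (0.998). FOS had 503 and 576 FPKM in the NT libraries and 33.6 and 26.7 in the NT + TPL libraries, and 555 and 454 in the TAM libraries and 21.8 and 26.8 in the TAM + TPL libraries. The genes most like KLF4 were ABR (r = 0.989), PPIP5K1 (0.981) and VDR (0.978). VDR had 14.4 and 16.3 FPKM in the NT libraries, 19.6 and 13.0 in the NT + TPL libraries, 11.2 and 8.83 in the TAM libraries and 12.4 and 10.8 in the TAM + TPL libraries, with NT + TPL replicate 1 the highest library, as for KLF4. These correlations are over 8 libraries that share their groups and scaling, and they do not measure the size of a change.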

How the data were processed

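RNA-Seq (8 libraries) and RNAPII peak lists (1 per condition) of MCF10A-ErSrc cells were used. The expected counts, which are reads per gene estimated by RSEM without normalization, and the FPKM, scaled by transcript length and library total, were made by the authors from poly-A RNA aligned to reference transcripts with Bowtie2, and deposited for 1 library per file. Peaks were called over input after alignment to hg19. The submitters' processing notes name MACS 1.4.2. Peak names carry replicate 1 stems. Genes without reads are left out of the files and were taken as 0.

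Expected counts were rounded and fitted with edgeR 4.0.16 in R 4.3.3 (TMM, filterByExpr, quasi-likelihood test, Benjamini-Hochberg adjustment) with all 4 groups fitted together (16948 genes). The TMM scaling factors ranged from 0.975 to 1.03. Alternatives used DESeq2 1.42.0, limma 3.58.1 on log2(FPKM + 1) and log2(FPKM + 0.1), other scalings, filters, thresholds, a replicate block and each library left out. Fits were tested on simulated data. TSSs came from GENCODE release 44 on build 37, promoter sequences from the GRCh37 genome, and symbols by gene ID from RefSeq tables. Tables and plots used Python 3.11.15 and matplotlib 3.10.9.

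Named genes were all members and, from each other list, up to 4 genes with the smallest adjusted p in either TPL comparison (at most 0.05, with TPL libraries on 1 side of the DMSO libraries), and the 3 genes most like the members with the largest mean fall and rise. SP genes and epithelial markers were further lists. Members and lists were chosen with earlier results of these data known. Methods give the cultures as independent biological replicates. In every group the replicates differed by more than counting noise, and most in NT + TPL. Chi-square per degree of freedom was 33.1 in NT + TPL, 14.6 in NT, 10.1 in TAM and 9.93 in TAM + TPL. The values of 1 listed gene are not reported here.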

Additional observations from a re-analysis of the deposited data

How the results depend on the processing

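In NT cells with TPL, 4 members were called, 0 with a replicate block, 0 in a fit over the groups compared only, 0 to 2 with 1 library left out, and 7 at 0.05 for the adjusted p and no minimum fold. In TAM cells 2 were called, 7 by DESeq2, 7 among genes that had 10 or more counts in each library, 0 with a replicate block, 4 in a fit over the groups compared only, 0 to 6 with 1 library left out, 7 when entries of a symbol were summed (an alternative chosen after seeing the data, as was the sum for KLF4 alone), and 7 at 0.05 for the adjusted p, with or without a minimum log2 fold change of 1.2. Calls over all genes moved too. In TAM cells with TPL they were 345 lower of 16948 in the main fit and 1402 of 23529 by DESeq2. They were 871 of 12502 with 10 or more counts, 201 of 15935 over the groups compared only and 1152 of 15763 with summed entries. TAM against NT had 0 called members, but 1 with DMSO and 2 with TPL by DESeq2 (3.13% and 2.83% of genes). There were 1 and 1 at 0.05 for the adjusted p and a minimum of 1.2, and 1 and 2 with no minimum. The block and most fits without a library called 0 genes in all with TPL, so these counts do not bear on the members alone. A peak within 1000 bases of the TSS was listed for 8 members in NT (69.5% of genes) and 9 in TAM (66.3%), against 7 and 7 across it, and for 6 in NT + TPL (56.4%) and 8 in TAM + TPL (55.8%), against 5 and 5. The causes were not tested.

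Whether same-numbered libraries were grown or processed together is not given in the sources used here. The deviations of same-numbered libraries correlated with r = -0.29 between NT and NT + TPL and -0.0538 between TAM and TAM + TPL. With the replicate block 6 members fell at an adjusted p of 0.05 in NT (7 without it) and 7 in TAM cells (7 without it). For TAM against NT 0 members passed with DMSO (1 without it) and 0 with TPL (2 without it). The shares of all genes that passed 0.05 with the block are not given here, so these counts do not bear on the members alone. At the study's thresholds the block fit called 0 genes with TPL in either state. The members' median log2 fold change with TPL was then -2.32 in NT and -2.41 in TAM cells, beside 0.08 and 0.05 over all genes.

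The median log2 fold change with TPL of the tested genes was 0.09 for NT and 0.05 for TAM cells, 0.31 and 0.29 under the upper quartile scaling, and -0.26 and -0.07 under the GAPDH scaling, where the members' medians were -2.31 and -2.42, -2.08 and -2.18, and -2.69 and -2.53. Calls over all genes were 206 higher and 460 lower in NT cells, 265 and 305 by upper quartiles and 99 and 568 by GAPDH. In TAM cells they were 143 and 345, and 196 and 210 by upper quartiles.

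Small log2 fold changes changed sign. KLF4 with TPL in NT cells gave -0.26 with GAPDH, -0.37 when its entries were summed and -0.37 when all entries were, and -0.25 to 0.43 with 1 library left out. For TAM against NT with DMSO, KLF3 gave 0.015 with DESeq2 size factors, 0.031 with upper quartile normalization, 0.015 with DESeq2, 0.018 over the groups compared only and -0.22 to 0.23 with 1 library left out, and KLF13 -0.22 to 0.074. With TPL, KLF2 gave -0.017 with limma on log2(FPKM + 0.1) and -1.24 to 1.02 with 1 library left out, KLF10 -0.19 with GAPDH and -0.35 to 0.58, KLF11 -0.25 to 0.87 and KLF13 -0.59 to 0.39. For the difference between the TPL effects, the fits without a library ranged from -2.13 to 0.12 for KLF2, -0.15 to 0.53 for KLF4, -0.26 to 0.48 for KLF5, -0.29 to 0.49 for KLF9, -0.87 to 0.25 for KLF11 and -0.56 to 0.42 for KLF13. KLF9 gave -0.13 with limma on log2(FPKM + 1) and KLF13 0.14 with GAPDH. With 1 library left out, the lone library of a group was assumed to vary like the other groups.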

Other observations

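The SP genes, whose proteins bind the same GC boxes as KLF proteins, held 7 tested genes. With TPL 2 of them fell and 1 (SP4, named after its value was seen) rose in NT cells. In TAM cells 4 fell and 1 rose. Of all tested genes 19.8% fell and 17.2% rose in NT cells, and 18.6% fell and 14.3% rose in TAM cells. SP3 had 4.98 and 8.88 FPKM in the NT libraries, 2.42 and 1.67 in the NT + TPL libraries, 7.85 and 8.09 in the TAM libraries and 2.70 and 3.34 in the TAM + TPL libraries, and fell in both states. SP5, named likewise, was the remaining fall in TAM cells. SP2 fell by 1.03 and 1.42 on the log2 scale. SP1 fell by 1.49 in TAM cells (edgeR adjusted p = 0.0224), with -0.88 in NT cells (adjusted p = 0.1). SP6 rose in TAM cells, from 0.31 and 0.94 FPKM to 2.50 and 2.81, and had 4.36 and 4.02 in the NT libraries and 8.17 and 6.49 in the NT + TPL libraries. Of 8 epithelial markers, 4 fell and 1 (ITGB4, named likewise) rose with TPL in NT cells. In TAM cells 3 fell and 0 rose, beside the same shares of all genes. TP63, a basal cell factor, had 13.2 and 23.6 FPKM in the NT libraries, 0.64 and 0.28 in the NT + TPL libraries, 24.2 and 23.0 in the TAM libraries and 0.89 and 0.58 in the TAM + TPL libraries. The basal keratin KRT5 fell by 0.54 and 1.57 on the log2 scale, KRT14 by 2.04 in NT and KRT17 by 0.96 in TAM cells. Of 3 tested markers of other cell types, 0 passed an adjusted p of 0.05 in edgeR with TPL. At an unadjusted p under 0.05 edgeR had 0 in NT and 1 in TAM cells, beside 8108 and 7640 of 16948 tested genes.

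The mean transcript length that RSEM assigned to KLF5, weighted over its isoforms, was 3156 and 3191 bases in the NT libraries and 3410 and 3489 in the NT + TPL libraries, and 3175 and 3103 in the TAM libraries and 3216 and 3248 in the TAM + TPL libraries. The TPL libraries were longer than the DMSO libraries of the same cells, without overlap. This was noticed after the values were seen and was not tested. KLF6, by the same measure, had between 4588 and 4679 bases in all libraries.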
